A study of Mus musculus with 21 samples.

Results

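PSME3 peaks and H3K4me3 peaks were examined at 45 genes that encode RNA polymerase II, the Integrator complex and the factors that act on the tail of the polymerase or on its early elongation. They are 45 of the 21900 protein-coding genes in the GRCm38.p6 gene table, and all 45 symbols were matched. The members were the 12 RNA polymerase II subunit genes, 14 Integrator subunit genes, 5 genes for proteins that bind or dephosphorylate the polymerase tail, 3 genes of the kinase module of TFIIH, 3 P-TEFb genes, 4 elongation and histone chaperone genes and 4 NELF genes. A peak was assigned to a member when it lay within 1 kb of the gene span, sharing at least 1 base with that window.

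PSME3 (PA28 gamma) is a nuclear activator of the proteasome core. H3K4me3 is a histone mark found at the start sites of genes in use. RNA polymerase II carries a long repetitive C-terminal domain (CTD) on its largest subunit, and the serines of that tail are phosphorylated and dephosphorylated as transcription starts, pauses and elongates. CDK7 in TFIIH phosphorylates the tail at the promoter, NELF and SPT5 hold the polymerase shortly after the start, and P-TEFb, the pair of CDK9 and a cyclin T, releases it. RPRD proteins bind the phosphorylated tail and guide its dephosphorylation, and RPAP2 and CTDP1 are tail phosphatases. Integrator binds the paused polymerase, cleaves nascent RNA and ends transcription early, and it also forms the ends of small nuclear RNAs.

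C2C12 cells, myoblasts of an established mouse line, were profiled by CUT&RUN, in which an antibody directs a nuclease to release the DNA around its target. Cycling cells grew in 20% FBS and were stored frozen, unfixed, in FBS with 10% DMSO, in 3 replicates per antibody. Day 2 cells had been brought to confluence and then held in 2% horse serum for 48 hours, and they were used fresh or frozen, each either native or crosslinked with 0.1% formaldehyde for 5 min and quenched with 12.5 mM glycine, with 1 library per antibody and preparation. Frozen native is the day 2 preparation that matches the cycling cells. The 4 day 2 preparations were not tested against each other, apart from a check for single outlying libraries by Dixon's criterion, given below. Another 7 libraries, made with IgG, were not analysed here. The study describes the cycling replicates as biological, and the labels do not say how the cultures were separated.

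The 8 PSME3 lists held from 18 to 5812 peaks and the 8 H3K4me3 lists from 14372 to 40999. The cycling PSME3 lists were uneven, with 1200, 776 and 3070 peaks in replicates 1, 2 and 3 and 5812 in the list that the authors called on the pooled replicates. The day 2 PSME3 lists were short, with 186 peaks in the frozen native, 77 in the frozen crosslinked, 23 in the fresh native and 18 in the fresh crosslinked list. No list gives read numbers, so depth is unknown, and a missing peak cannot be told apart from a library too shallow to show it. All 5 markers of myoblasts (Myod1, Myf5, Des, Cdh15 and Itga7) had an H3K4me3 peak in all 7 H3K4me3 libraries. Of 8 genes of differentiating muscle, such as Myog and Ckm, 0 had one in all 3 cycling replicates and 8 had one in all 4 day 2 libraries. Of these 8, 5 had none in any cycling replicate, and 4, Ckm among them, had one in the pooled cycling list. Of 9 markers of other cell types, 7 had none in any of the 7 libraries.

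In the pooled cycling list, 19 of the 45 members had a PSME3 peak (42.2%, 95% interval 27.7 to 57.8% by the exact Clopper-Pearson method, which covers the error of counting alone). They were Polr2a, Polr2b, Polr2c, Polr2h, Ints3, Ints6, Ints7, Ints8, Ints9, Ints13, Ints14, Rprd2, Rpap2, Ctdp1, Cdk9, Supt6, Ssrp1, Nelfa and Nelfb. Of all protein-coding genes, 21.9% had such a peak. All 45 members carried H3K4me3 in the pooled list, against 60.9% of all protein-coding genes, and among genes with H3K4me3 the share with PSME3 was 35.6%, which lies inside the interval of the members. The count of members thus lay near that background and is not a result about these genes in particular. Over the 8 PSME3 lists, 23 members had a peak in at least 1 list and 22 in none. Of all protein-coding genes, 24.2% had one in at least 1, a share not limited to genes with H3K4me3.

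**Figure D1:**
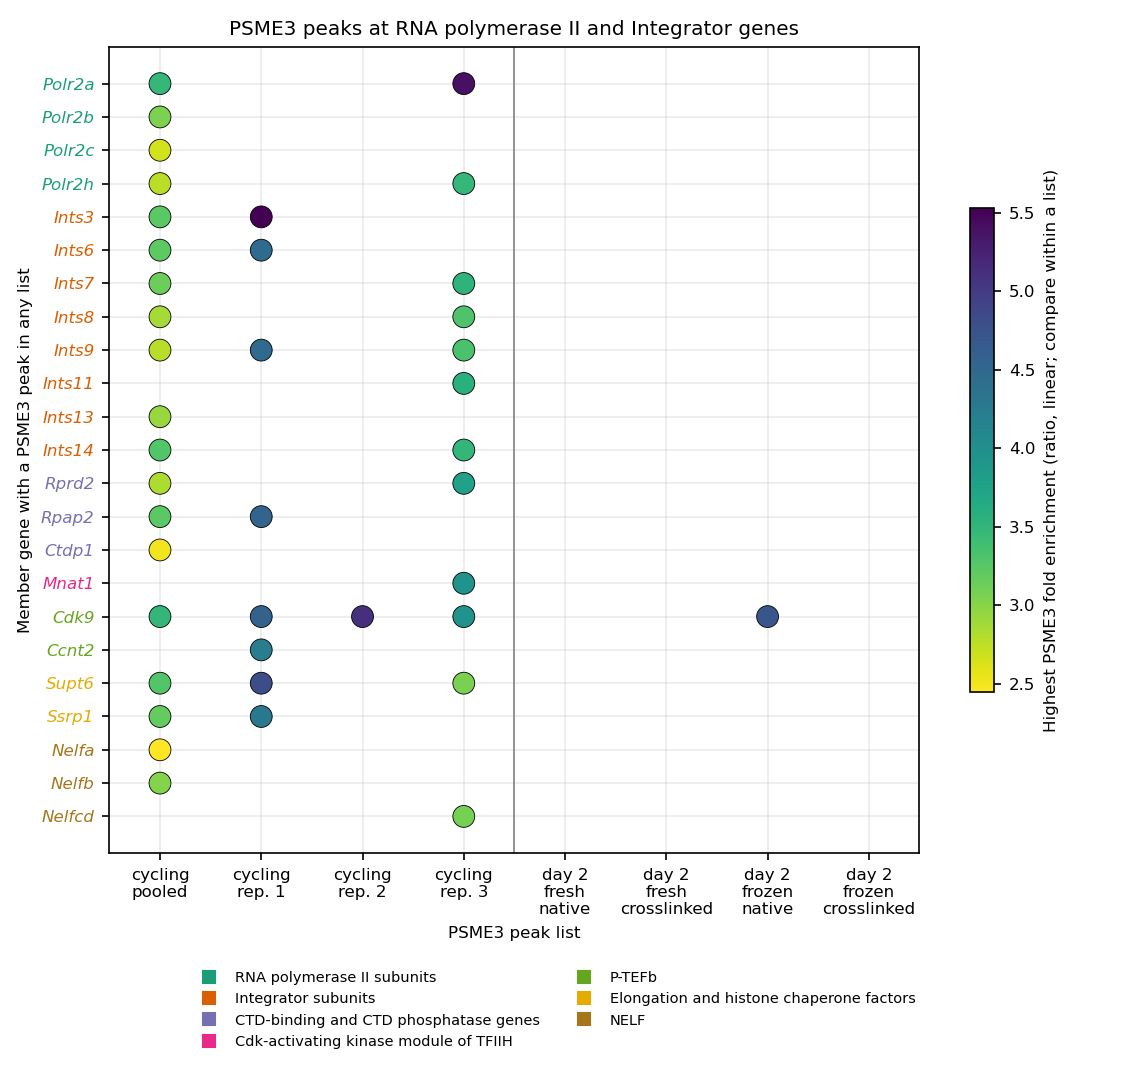
Dots mark the PSME3 peak lists (columns: the pooled cycling list, cycling replicates 1 to 3 and the 4 day 2 preparations) in which each of 23 members (rows, name coloured by complex) had a peak within 1 kb, and the colour gives its highest fold enrichment, a linear ratio to be compared within a column only. Cdk9 is the member with a dot in all 3 replicate columns and the only one with a dot at day 2.

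The promoters of the members on which these results turn are given first. Each runs 5′ to 3′ on the strand of the gene, from 250 bases before the transcription start to 30 bases from it (280 bases, RefSeq sequence, GRCm38.p6), and capitals mark every match, on either strand, to one of 7 short motifs: the GC box GGGCGG, the CCAAT box written as CCAAT, the core of ETS factor sites CCGGAA, the TATA box written as TATAAA, the E-box CACGTG, the core of NRF1 sites GCATGCGC and that of YY1 sites AAGATGGC. None of the 7 contains another. The first 6 belong to the named members with the highest pooled PSME3 fold enrichment that are in the promoter table.
Cdk9 (chr2:32712755-32713034, minus strand): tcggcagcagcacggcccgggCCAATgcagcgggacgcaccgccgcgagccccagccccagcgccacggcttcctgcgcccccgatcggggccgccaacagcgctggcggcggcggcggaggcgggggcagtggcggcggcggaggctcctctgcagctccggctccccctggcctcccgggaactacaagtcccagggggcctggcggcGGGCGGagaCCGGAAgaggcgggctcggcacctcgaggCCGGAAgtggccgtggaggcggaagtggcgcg
Polr2a (chr11:69758604-69758883, minus strand): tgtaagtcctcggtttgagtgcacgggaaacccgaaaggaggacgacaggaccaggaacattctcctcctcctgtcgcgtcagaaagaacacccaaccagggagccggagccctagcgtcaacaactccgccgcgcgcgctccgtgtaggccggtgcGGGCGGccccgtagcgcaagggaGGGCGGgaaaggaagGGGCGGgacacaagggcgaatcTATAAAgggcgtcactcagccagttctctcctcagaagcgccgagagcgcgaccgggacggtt
Ints14 (chr9:64960680-64960959, plus strand): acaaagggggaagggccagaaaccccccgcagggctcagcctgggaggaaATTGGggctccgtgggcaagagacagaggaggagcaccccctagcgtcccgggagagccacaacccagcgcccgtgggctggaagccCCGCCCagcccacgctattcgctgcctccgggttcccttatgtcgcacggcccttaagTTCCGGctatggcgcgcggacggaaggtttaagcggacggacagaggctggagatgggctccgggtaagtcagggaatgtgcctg
Supt6 (chr11:78245674-78245953, minus strand): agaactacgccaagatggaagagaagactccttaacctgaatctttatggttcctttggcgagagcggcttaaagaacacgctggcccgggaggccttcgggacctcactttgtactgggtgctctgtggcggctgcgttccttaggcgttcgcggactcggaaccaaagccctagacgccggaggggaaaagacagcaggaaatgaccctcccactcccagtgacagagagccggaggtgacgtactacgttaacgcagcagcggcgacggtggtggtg
Ints3 (chr3:90433607-90433886, minus strand): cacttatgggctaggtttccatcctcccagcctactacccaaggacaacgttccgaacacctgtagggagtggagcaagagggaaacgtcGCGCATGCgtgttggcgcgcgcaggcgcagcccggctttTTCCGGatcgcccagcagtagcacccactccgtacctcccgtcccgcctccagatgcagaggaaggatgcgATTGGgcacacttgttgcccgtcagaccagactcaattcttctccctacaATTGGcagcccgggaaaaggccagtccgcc
Rprd2 (chr3:95818924-95819203, minus strand): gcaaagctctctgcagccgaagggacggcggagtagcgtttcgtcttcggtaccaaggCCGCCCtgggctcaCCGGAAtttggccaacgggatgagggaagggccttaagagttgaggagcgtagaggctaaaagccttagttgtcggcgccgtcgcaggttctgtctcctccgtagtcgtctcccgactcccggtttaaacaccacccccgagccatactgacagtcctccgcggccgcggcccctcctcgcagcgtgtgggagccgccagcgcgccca
The pooled PSME3 peak covered all 280 bases of the Cdk9, Supt6 and Rprd2 promoters, 115 bases at Ints3, 84 at Ints14 and only the first 36 at Polr2a. For contrast, the following 2 are the members with the highest pooled H3K4me3 fold enrichment among those with no PSME3 peak in any list and with a listed promoter.
Polr2l (chr7:141475124-141475403, minus strand): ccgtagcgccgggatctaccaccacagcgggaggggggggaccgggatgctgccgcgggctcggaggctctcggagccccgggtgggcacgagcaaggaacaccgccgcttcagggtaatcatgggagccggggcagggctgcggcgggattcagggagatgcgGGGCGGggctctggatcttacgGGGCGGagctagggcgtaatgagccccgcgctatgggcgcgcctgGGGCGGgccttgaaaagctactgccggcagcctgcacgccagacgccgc
Supt16 (chr14:52197210-52197489, minus strand): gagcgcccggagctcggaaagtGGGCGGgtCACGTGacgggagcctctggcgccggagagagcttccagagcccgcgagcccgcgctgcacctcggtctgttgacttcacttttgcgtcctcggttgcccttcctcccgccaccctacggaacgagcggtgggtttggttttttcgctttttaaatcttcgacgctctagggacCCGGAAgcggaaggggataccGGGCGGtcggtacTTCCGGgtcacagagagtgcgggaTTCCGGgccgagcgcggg
A pooled H3K4me3 peak covered all 280 bases of each of the 8 promoters.

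Read as a group, the promoters of the members were rich in CpG. The table lists a promoter for 33 of the 45 members. Their median GC content was 63.2% and their median number of CG pairs 26, against 60.4% and 18 over 13658 promoters of coding genes with a pooled H3K4me3 peak, and 52.5% and 6 over all 32851 promoters of the table. The ETS core was found in 17 of 33 member promoters (51.5%), against 24.7% of promoters of genes with H3K4me3 and 14.2% of all. It was in 5 of the 16 with a pooled PSME3 peak and in 12 of the 17 without, while over all promoters of genes with H3K4me3 the shares were 22.9% with PSME3 and 25.7% without. GC boxes were in 24 of 33 (72.7%, against 60.1% and 34.7%), with 11 of 16 and 13 of 17 (65.9% and 56.5% over genes with H3K4me3). CCAAT was in 13 (39.4%, against 36.8% and 36.1%), the NRF1 core in 4 (12.1%, against 4.69% and 2.58%), and the E-box in 3 (9.09%, against 9.22% and 6.79%). TATAAA was in 3, Polr2a, Polr2c and Nelfb (9.09%, against 7.11% and 13.1%), all of which had a pooled PSME3 peak (5.97% with and 7.80% without over genes with H3K4me3). The YY1 core was in 1, Supt5 (3.03%, against 3.22% and 2.29%). With and without PSME3, CCAAT was in 7 and 6 members, the NRF1 core in 2 and 2, the E-box in 1 and 2 and the YY1 core in 0 and 1. No split was tested, these are matches of letters, and no test of binding was made.

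The replicate lists carried fewer of these peaks. PSME3 was found at 8 members in replicate 1, 1 in replicate 2 and 12 in replicate 3, a mean of 7.0 ± 5.57 (SD, n = 3). In replicate 1 this was 17.8% of the members (exact interval 8.0 to 32.1%), against 4.56% of all coding genes and 7.56% of those with H3K4me3 in the same replicate. In replicate 2 it was 2.22% (0.0562 to 11.8%), against 3.60% and 5.66%, and in replicate 3 26.7% (14.6 to 41.9%), against 13.4% and 22.5%. Both backgrounds lay below the interval of the members in replicate 1 and inside it in replicate 2, and in replicate 3 only that of genes with H3K4me3 lay inside it. Each interval rests on 1 library and treats genes as independent, and the members were chosen with earlier results of these data known. No excess at these genes is drawn from them. In all, 17 members had a peak in at least 1 replicate list, against 16.1% of coding genes, and 14 of these had it in exactly 1, against 11.9%. Only Cdk9, Supt6 and Ints9 (3 of 45) had one in at least 2, against 4.27% of coding genes, and Cdk9 alone had one in all 3, against 1.19%. These shares are of all coding genes, with or without H3K4me3, while all 45 members carried it. Of the 19 members with a pooled peak, 6 had no peak in any replicate list (Polr2b, Polr2c, Ints13, Ctdp1, Nelfa and Nelfb), and 4 members had a replicate peak and no pooled one (Ints11, Mnat1, Ccnt2 and Nelfcd).

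The pooled peaks were of middling strength and most with a listed start site covered it. There were 20 at the 19 members, since Ssrp1 had 2, with fold enrichments of 2.45 to 3.49 (median 3.04, against 2.92 over the whole list). Their ranks within the list ran from the percentile 1.70 (Nelfa) to 87.8 (Cdk9), with a median of 62.8. They were 225 to 1270 bp wide (median 564.5 bp). For the 17 peaks at members with a listed start site, 13 covered it (76.5%) and 16 came within 250 bp (94.1%), against 45.8% and 67.8% of the 4428 pairs of a coding gene and a pooled peak. The exception was the second Ssrp1 peak, 10471 bp downstream of the start and 808 bp from the nearer end of the gene, next to Tnks1bp1. The other 3 peaks, at Ints8, Ints9 and Ctdp1, have no listed start, and that at Ctdp1 lay 8580 bp from the nearer end of the gene. Another coding gene lay within 1 kb of 11 of the 20 peaks (55.0%). Of the 4702 pooled peaks near a coding gene, each counted once, 15.4% lay within 1 kb of at least 2. The member peaks were reached through their genes, which favours peaks near several genes, so the shares are not counted alike. The other genes were Slc35g3 at Polr2a, Noa1 at Polr2b, Clcn2 at Polr2h, Dtl at Ints7, Hmbox1 at Ints9, Fgfr1op2 at Ints13, Glmn at Rpap2, Sdf2 at Supt6, P2rx3 and Tnks1bp1 at the 2 Ssrp1 peaks and Stpg3 at Nelfb. At these sites the peak cannot be given to one gene or the other.

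All 20 pooled PSME3 peaks at members overlapped a pooled H3K4me3 peak (100%, exact 95% interval 83.2 to 100%), and all 20 lay wholly inside it. Of all pooled PSME3 peaks within 1 kb of a coding gene, 96.0% overlapped H3K4me3. The H3K4me3 peaks were 2027 to 8228 bp wide, with a median of 3956 bp, and the centres of the paired peaks were 25 to 2984 bp apart (median 424.8 bp). The same held within replicates, where 8 of 8, 1 of 1 and 12 of 12 PSME3 peaks at members overlapped an H3K4me3 peak of the replicate with the same number.

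**Figure D2:**
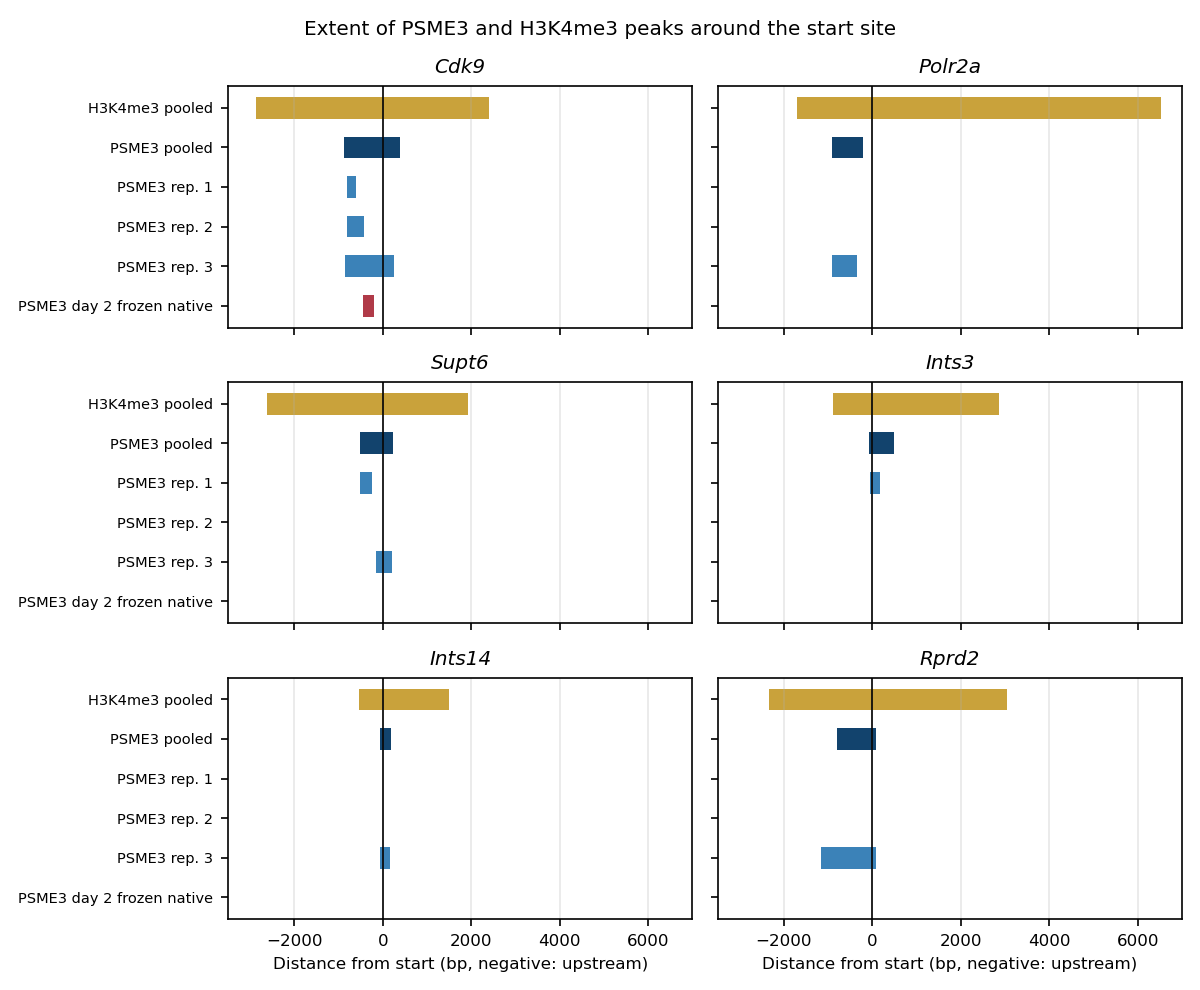
Bars show the extent of peaks, in bp from the transcription start of each gene (vertical line, negative values upstream), for pooled H3K4me3 (gold), pooled PSME3 (dark blue), PSME3 replicates 1 to 3 (light blue) and day 2 frozen native PSME3 (red). The PSME3 peaks lie inside the wider H3K4me3 peak in each of the 6 genes, over the start or just upstream of it (at Polr2a its edge is 215 bp upstream).

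Among the RNA polymerase II subunits, 4 of 12 had a pooled PSME3 peak. Polr2a encodes the largest, catalytic subunit that carries the CTD. Its PSME3 peak on chromosome 11 (69758848 to 69759556, fold enrichment 3.48 in the pooled list) did not reach the start site but ended 215 bp upstream of it, and Slc35g3 lay within 1 kb of it too. In replicate 3 the fold enrichment was 5.40, at the percentile 97.9 of that list, and replicates 1 and 2 and the 4 day 2 lists had no peak. It was the highest-ranked of the replicate 3 peaks at members, while its H3K4me3, at 11.26 in the pooled list, was the lowest of the 45. Polr2b, the second large subunit, had 3.06 and Polr2c, which nucleates assembly, 2.66 in the pooled list, neither with a replicate peak. Polr2h, a small subunit shared by the 3 RNA polymerases, had 2.77 in the pooled list and 3.48 in replicate 3. The other 8 subunits, Polr2d, Polr2e, Polr2f, Polr2g, Polr2i, Polr2j, Polr2k and Polr2l, had no PSME3 peak in any list, and for Polr2l and Polr2e the nearest pooled peak lay just outside the window, at 1.33 and 1.87 kb.

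Of the 14 Integrator subunits, 7 had a pooled PSME3 peak. Ints3, which also joins a single-strand DNA binding complex, had 3.24 in the pooled list and 5.53 in replicate 1, the highest replicate 1 value of the members, with none in replicates 2 and 3. Ints14, whose product forms a module with that of Ints13, had 3.29 in the pooled list and 3.5 in replicate 3 alone. Ints9, the inactive partner of the endonuclease INTS11, had 2.78 in the pooled list, 4.48 in replicate 1 and 3.34 in replicate 3, and none in replicate 2. The replicate 3 peak of Ints9 was 203 bp wide and all of it lay within the replicate 1 peak, on chromosome 14 (pooled peak 64949958 to 64950197), where Hmbox1 also lies within 1 kb. Ints11, the endonuclease itself, had a peak in replicate 3 alone (3.58), which covered its start site, and the nearest pooled peak was 2.77 kb away. Ints6, Ints7, Ints8 and Ints13 had between 2.87 and 3.21 in the pooled list, and Ints1, Ints2, Ints4, Ints5, Ints10 and Ints12 had no PSME3 peak in any list.

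Among the genes for proteins that act on the CTD, the 3 Rprd genes differed in peak calls. Rprd2 had a PSME3 peak over its start on chromosome 3 (95818868 to 95819752), at 2.83 in the pooled list and 3.75 in replicate 3, with none in replicates 1 and 2 or at day 2. Rprd1a and Rprd1b, whose proteins share the CTD-interacting domain with RPRD2, had no PSME3 peak in any of the 8 lists. The nearest pooled peak was 73.3 kb from the Rprd1a span and 115 kb from that of Rprd1b. All 3 carried H3K4me3 in the pooled list, at fold enrichments of 18.81 (Rprd1a), 17.33 (Rprd1b) and 17.78 (Rprd2). The summed width of the mark was 2141 bp at Rprd1a, 4125 bp at Rprd1b and 5377 bp at Rprd2, so Rprd2 was between the others in height and had the widest mark. Rpap2 had 3.24 in the pooled list and 4.55 in replicate 1. Ctdp1 had the only pooled peak inside a gene body away from either boundary (2.52, 8580 bp from the nearer one), also within H3K4me3 and with no replicate peak. Its start site is not listed, so the distance of the peak from it is unknown.

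Cdk9, the kinase of P-TEFb, was the most reproducible member. Its PSME3 fold enrichment was 3.49 in the pooled list, 4.57 in replicate 1, 5.10 in replicate 2 and 3.95 in replicate 3, and 4.71 in the frozen native day 2 list, with no peak in the other 3 day 2 lists. The pooled peak on chromosome 2 (32712399 to 32713668) was, at 1270 bp, the widest at a member and spanned the start site. The replicate peaks were narrower and lay upstream of or over the start. The replicate 1 peak shared 208 bp with those of replicates 2 and 3, and the replicate 2 peak shared 387 bp with that of replicate 3. The day 2 peak (253 bp) lay wholly inside the replicate 3 peak, shared 30 bp with replicate 2 and missed the replicate 1 peak by 149 bp. The region also holds Mir2861, Mir3960 and Gm33457. Of the cyclin partners of CDK9, Ccnt2 had a peak in replicate 1 alone (4.24) and Ccnt1 none, the nearest pooled peak being 4.34 kb away.

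In the kinase module of TFIIH, none of Cdk7, Ccnh and Mnat1 had a pooled peak. The replicate 3 peak assigned to Mnat1 (3.95) was 10981 bp from its listed start, at 116 bp from a boundary of its span, and within 1 kb of Six4. Of the elongation genes, Supt6, whose product is a histone chaperone that travels with the polymerase, had 3.29 in the pooled list, 4.81 in replicate 1 and 3.07 in replicate 3. The replicate 1 and 3 peaks of Supt6 were 78 bp apart and both overlapped the pooled peak on chromosome 11 (78245479 to 78246222), so its count of 2 replicates rests on neighbouring and not on shared bases. Ssrp1, a subunit of the FACT chaperone, had 3.19 at its start in the pooled list, whereas its replicate 1 peak (4.28) overlapped the second peak near Tnks1bp1. Its FACT partner Supt16 and the pausing and elongation factor Supt5 had no PSME3 peak. Among the NELF genes, Nelfb had 3.02 and Nelfa 2.45 in the pooled list, Nelfcd 3.09 in replicate 3 alone, and Nelfe none.

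**Figure D3:**
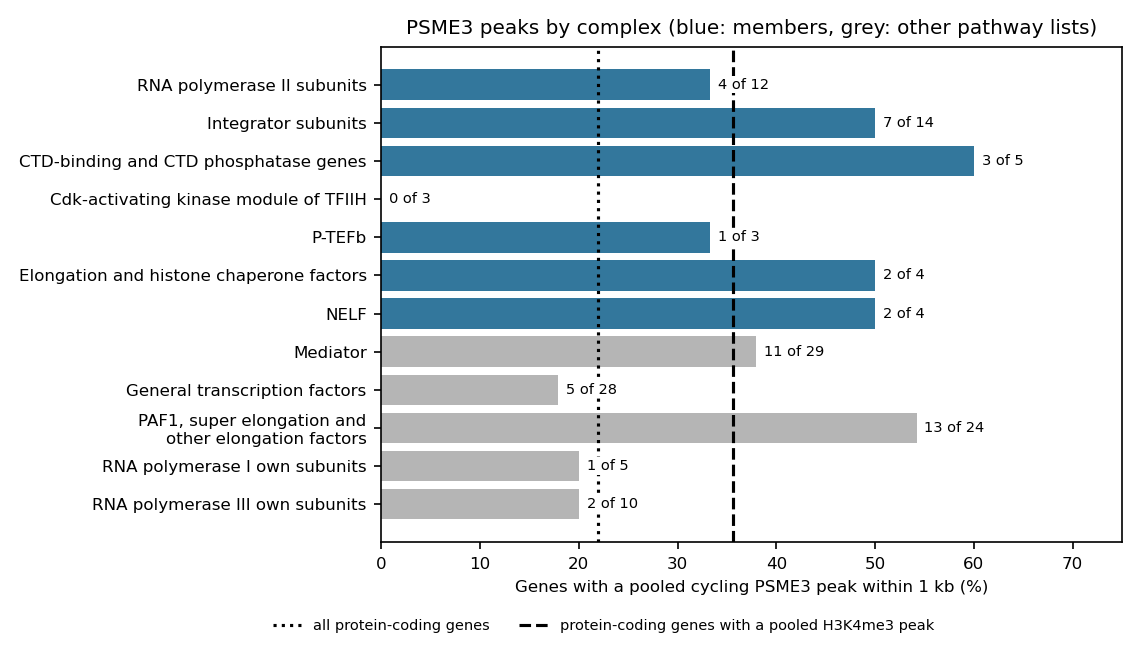
Bars give the percent of genes of each complex with a pooled cycling PSME3 peak within 1 kb (blue for the member groups, grey for other lists of the pathway), with the count beside each bar, and vertical lines give the percent for all protein-coding genes (dotted, 21.9%) and for those with pooled H3K4me3 (dashed, 35.6%). The groups lie on both sides of the dashed line, from 0 of 3 for the TFIIH kinase module to 3 of 5 for the CTD-binding and phosphatase genes.

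Other genes of the pathway were counted in the same way. All 96 that were matched had H3K4me3 in all 7 libraries, and 32 (33.3%) had a pooled PSME3 peak. The shares were 11 of 29 for Mediator, 5 of 28 for the general transcription factors, 13 of 24 for the PAF1 complex, super elongation complex and other elongation factors, 1 of 5 for RNA polymerase I and 2 of 10 for RNA polymerase III. Of the 96, 6 had a peak in at least 2 replicate lists, against 3 of the 45 members.

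At day 2, PSME3 was found at 1 of 45 members in the frozen native list (2.22%, interval 0.0562 to 11.8%), which was Cdk9, against 0.950% of coding genes. In the other 3 lists it was found at 0 members, which allows up to 7.87% by the same exact interval, against 0.0868% of coding genes (fresh native), 0.0776% (fresh crosslinked) and 0.402% (frozen crosslinked). With lists this short a count of 0 is what the background itself would give. The 19 members of the pooled cycling list come from 3 libraries joined, and single cycling libraries had 8, 1 and 12, the 1 in replicate 2 with its 776 peaks. The fall from 19 members in cycling cells to 1 at day 2 cannot be told apart from the fall in the length of the lists.

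H3K4me3 was present at all 45 members in all 3 cycling and all 4 day 2 libraries, against 53.2% of coding genes. To compare levels, each gene was ranked within its own library among all protein-coding genes by the highest H3K4me3 fold enrichment near it, and the rank was written as a percentile. The members ranked high, with a median of the mean percentile of 83.5 in cycling and 84.4 in day 2 cells, against 73.9 and 73.8 for the 11642 coding genes with a peak in all 7 libraries. Between libraries a member typically varied by an SD of 5.07 percentile points in cycling cells (median over members, n = 3) and 4.23 at day 2 (n = 4). The difference of means, day 2 minus cycling, was negative for 22 members and positive for 23, with a median of 0.76 (0.17 for all genes tested). The 4 day 2 libraries differ in preparation, with 1 library each, and the part of preparation in their spread was not tested.

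For 37 members the cycling and day 2 libraries overlapped. Another 6 lay lower in all 4 day 2 libraries than in all 3 cycling ones (10.3% of all genes tested did), and 2 lay higher (11.0%). The 6 and the 2 of 45 members were thus near or below the background, and the two-sided exact permutation test of 3 against 4 libraries cannot give a p under 0.0571. No gene of the 11642 had an unadjusted p under 0.05, and the smallest p adjusted by Benjamini-Hochberg over all genes tested was 0.269. The direction of the split also depended on the measure. By summed H3K4me3 width in place of fold enrichment, 1 member lay lower (7.82% of genes) and 4 higher (15.5%).

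The largest rise was at Polr2d, a subunit of the stalk of the polymerase. Its percentiles were 66.5, 75.3 and 71.4 in the cycling replicates and 98.1 and 89.6 in the fresh day 2 libraries, native and crosslinked in that order, and 88.6 and 86.9 in the frozen ones, means of 71.1 ± 4.41 (SD, n = 3) and 90.8 ± 5.0 (SD, n = 4). The groups did not overlap, the difference was 19.7 points, and the p was 0.0571 by the exact permutation test (adjusted 0.269). Ints4, a scaffold subunit of the cleavage module of Integrator, rose less. Its values were 68.7, 67.5 and 69.8 in cycling cells and 77.1, 79.6, 81.6 and 71.5 at day 2 (same order), a difference of 8.8 with the same p. Neither gene had a PSME3 peak in any list, and in every library the peak that set the rank lay across a boundary of the gene.

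Of the members that lay lower, Polr2l, a small subunit shared by the 3 RNA polymerases, had 99.1, 95.4 and 93.7 in cycling cells and 82.6, 84.6, 85.4 and 80.7 at day 2, a difference of -12.7. In all 7 libraries the peak that set this rank also lay within 1 kb of Tspan4. Ints1, the scaffold of Integrator, had 94.5, 81.8 and 79.9 against 74.3, 62.2, 74.2 and 79.2, a difference of -12.9, with replicate 3 and the frozen crosslinked library less than a point apart. Ccnh, cyclin H of TFIIH, had 94.3, 86.6 and 72.6 against 71.4, 64.9, 69.0 and 69.5, a difference of -15.8 with an SD of 11.03 in cycling cells. The sixth, Polr2b, lay outside the rule for naming and is named after its values were seen (difference -6.0), and its peak was shared with Noa1 in all 7 libraries. All of these had the exact permutation p of 0.0571 (adjusted 0.269).

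Ints11 and Mnat1 were also among the 6, but the peak that set their rank was not at their own start site throughout. At Ints11 the percentiles were 99.6, 91.3 and 96.8 in cycling cells and 81.5, 78.3, 76.3 and 78.9 at day 2, a difference of -17.1, the largest fall. In the 3 cycling libraries and the fresh crosslinked one the highest peak lay about 20 kb from the start of Ints11, at Pusl1 and Acap3, whereas in the other 3 day 2 libraries it covered the start. At Mnat1 the percentiles were 99.1, 96.7 and 99.9 against 93.8, 94.8, 94.0 and 78.0, a difference of -8.4, and in all 7 libraries the highest peak lay at Six4, which encodes a homeobox factor of muscle, at 9077 to 9852 bp from the Mnat1 start. Ranked only by H3K4me3 peaks within 1 kb of a listed start, an alternative chosen after seeing the data, 33 members could be compared, without Polr2d and Ccnh, whose starts are not listed. Of these 33, Polr2b, Polr2l and Ints1 lay lower and Ints4 higher, and neither Ints11 nor Mnat1 did (10.2% and 10.7% of 8924 genes lay lower and higher).

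**Figure D4:**
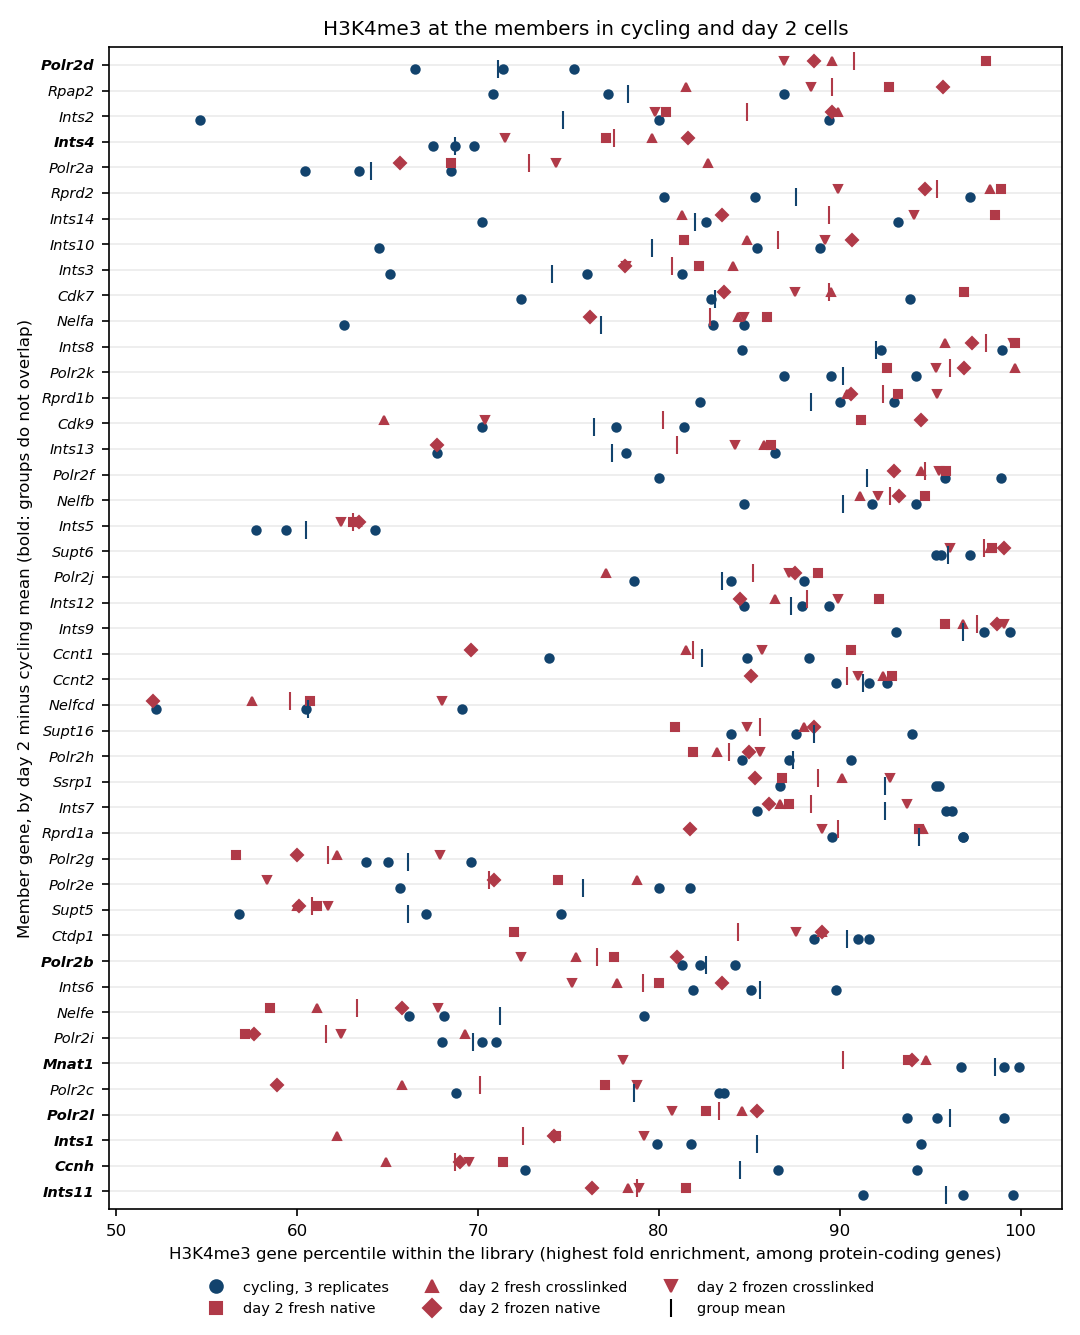
Each row is a member, ordered by the difference of means, with its H3K4me3 gene percentile in the 3 cycling replicates (blue circles) and the 4 day 2 libraries (red, a shape for each preparation) and vertical ticks for the group means. The groups overlap for 37 members, and bold names mark the 8 for which they do not, from Polr2d (19.7 points higher at day 2) to Ints11 (17.1 points lower).

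The remaining named members kept H3K4me3 ranks whose groups overlapped. At Cdk9 the percentiles were 81.4, 70.2 and 77.6 in the cycling replicates and 91.2, 64.8, 94.5 and 70.4 at day 2, so the native libraries lay above the cycling range and the fresh crosslinked one below it. At Supt6 they were 97.2, 95.6 and 95.3 against 98.4, 98.3, 99.1 and 96.1, and at Ints9 99.4, 98.0 and 93.1 against 95.8, 96.8, 98.7 and 99.1, so both ranked near the top of every library. At Polr2a they were 68.5, 63.4 and 60.4 against 68.5, 82.7, 65.7 and 74.3, below the median of the 45 members in each library. Ints3 had 65.1, 81.3 and 76.0 against 82.2, 84.1, 78.1 and 78.2, and Ints14 93.2, 82.6 and 70.2 against 98.6, 81.3, 83.5 and 94.1. The Rprd genes all ranked high. Rprd1a had 96.8, 96.8 and 89.6 against 94.4, 94.6, 81.7 and 89.0, Rprd1b 82.3, 93.0 and 90.0 against 93.2, 90.4, 90.6 and 95.4, and Rprd2 80.3, 85.3 and 97.2 against 98.9, 98.3, 94.7 and 89.9.

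Members with and without a pooled PSME3 peak were then set side by side. The highest H3K4me3 fold enrichment in the pooled list had a median of 17.3 (range 11.3 to 21.6) over the 19 members with PSME3 and 16.9 (12.3 to 23.7) over the 26 without, against 16.0 and 12.9 for all coding genes with H3K4me3. The summed width of H3K4me3 was a median of 4550 bp with PSME3 and 2840 bp without, close to the 4109 and 2765 bp of all coding genes with H3K4me3. The median span of the gene was 38845 bp with PSME3 and 21736 bp without, against 27614 and 22453 bp for all coding genes with H3K4me3. A longer span gives a wider window. With the window limited to 1 kb of either gene boundary, 18 members had a pooled PSME3 peak. No test was made of these differences or of the part of the span in them.

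**Figure D5:**
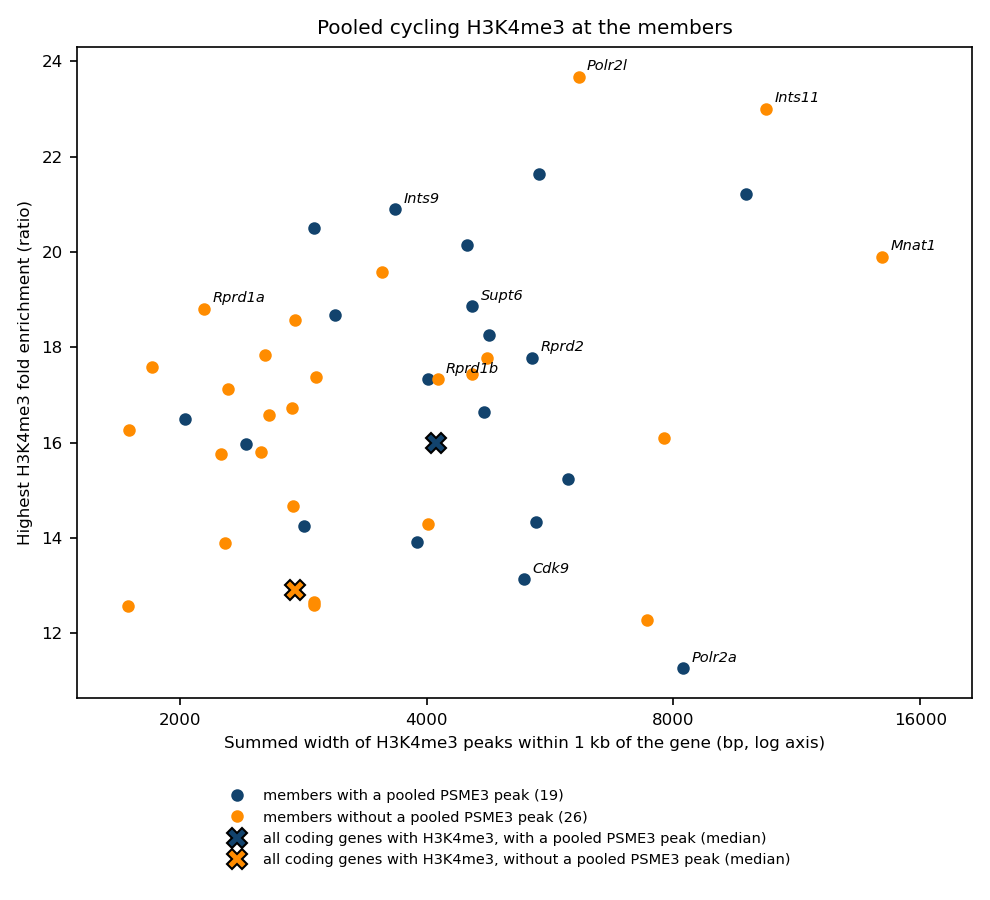
Points are the 45 members, by the summed width of their pooled cycling H3K4me3 peaks (horizontal, bp, log axis) and the highest H3K4me3 fold enrichment (vertical, ratio), in blue with and in orange without a pooled PSME3 peak, and crosses are the medians of all coding genes with H3K4me3 divided in the same way. Members with PSME3 have a median width of 4550 bp and those without 2840 bp, with wide overlap, and Polr2a is the lowest at 11.26 and Polr2l the highest at 23.68.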

How the data were processed

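CUT&RUN libraries of C2C12 cells were used as deposited peak lists. Trim Galore, Bowtie2 (to mm10) and MACS2 were the authors' tools for trimming, alignment and peak calling, per library and, for cycling cells, also on pooled replicates (tools and build per the labels and the methods of the study). Versions, options and the control library are not given in the sources used here. For each broad peak the authors deposited a fold enrichment, which is a ratio over local background, and -log10 values of p and q. Only the q-value was used, and every deposited peak had one under 0.1. Values of fold enrichment were set side by side within single lists, since no read numbers are given. Depth is thus unknown, and more reads let weaker sites pass.

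Peaks within 1 kb of a gene span were assigned to genes of a GRCm38.p6 table (mm10 is the same build) with Python 3.11.15, numpy 2.4.6, pandas 2.3.3 and scipy 1.17.1, and figures were drawn with matplotlib 3.10.9. Overlap meant at least 1 shared base. The gene table has no strand, so start sites and strand came from the RefSeq promoter table, which lists 33 members. The 95% intervals (Clopper-Pearson, exact) cover the error of counting alone. H3K4me3 gene percentiles of 3 cycling and 4 day 2 libraries were compared by a two-sided exact permutation test of the difference of means per gene, adjusted by Benjamini-Hochberg over all genes with a peak in all 7 libraries, and a gene was called when the groups did not overlap. The functions were tested on simulated data.

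Values in every library were given for members with PSME3 in at least 2 replicate lists or at day 2, the 5 with the highest pooled fold enrichment, those whose H3K4me3 percentiles did not overlap (at most 5 in each direction) and the Rprd genes. The members and gene lists were chosen with earlier results of these data known. The alternatives were other windows (gene span, gene boundaries, start sites, 3 kb), q-values of at most 0.05 and 0.01, peak centres, replicate support, the union of replicate lists, each replicate left out, an overlap of at least 50%, summed width and all genes ranked. For RNA polymerase I, 3 subunit symbols could not be matched to the gene table.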

Additional observations from a re-analysis of the deposited data

Results flagged for a closer look

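Within the 4 day 2 libraries, 1 library stood apart by Dixon's criterion for 6 of the 45 members in H3K4me3 percentile, and chance flags about 1 in 20 groups. The ratios of gap to range were 0.865 for Polr2j (77.1 in the fresh crosslinked library), 0.853 for Ints7 (93.7 in the frozen crosslinked), 0.889 for Ints13 (67.7 in the frozen native), 0.918 for Ctdp1 (72.0 in the fresh native), 0.945 for Mnat1 (78.0 in the frozen crosslinked) and 0.831 for Nelfa (76.2 in the frozen native). The 4 libraries differ in preparation and are not replicates of one preparation, so the rate of 1 in 20 need not hold for them. The share of all genes that would be flagged is not given here, so the 6 members are not read as a result. The number of members with PSME3 at day 2, 1 in the frozen native list and 0 in the other 3, also met the criterion (1.000). With 3 values of 0 any other count gives that ratio, so it carries no information beyond the single Cdk9 peak, and the frozen native list is also the longest of the 4 (186 peaks against 18 to 77).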

How the results depend on the processing

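The 45 members with H3K4me3, in the pooled cycling list and in all 4 day 2 lists, and the 100% overlap of their PSME3 peaks with H3K4me3 were the same under every alternative run. The 19 members with a pooled PSME3 peak stayed between 16 and 22 with other windows, peak centres, stricter q-values and the union of the replicate lists, but fell to 13 when at least 1 replicate list had to overlap the peak (added after seeing the data) and to 3 when at least 2 had to. With that support asked of the remaining replicates, the 13 became 9 without replicate 1, 13 without replicate 2 and 7 without replicate 3. The 3 members in at least 2 replicate lists became 1 at a q-value of at most 0.01 and ranged from 1 to 3 with a replicate left out, being 1 without replicate 1 or without replicate 3. The 1 member at day 2 became 0 when the gene span alone counted, since the Cdk9 peak lies upstream of it. The 8 members whose H3K4me3 percentiles did not overlap became 5 by summed width and 4 by peaks at start sites, where 33 members could be compared, of which 6 did not overlap by the measure used in the report. For the frozen native library against the cycling range they were 25, with 17 lower (25.5% of genes) and 8 higher (27.2%). With a cycling replicate left out, where fewer libraries make overlap rarer, they ranged from 13 to 18, with 12 lower and 6 higher without replicate 1 (16.2% and 16.9% of genes), 7 and 7 without replicate 2 (15.3% and 15.9%) and 10 and 3 without replicate 3 (14.6% and 15.6%). No paired analysis was possible because the day 2 libraries carry no replicate number and no test compared PSME3 with H3K4me3 libraries. Depth is unknown, and PSME3 results rest mostly on replicate 3 and on the pooled list.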

Other observations

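Among the other genes of the pathway, PSME3 peaks were found in all 3 cycling replicate lists at Med16, Cdk8 and Ell, named after their values were seen. Of all coding genes, 1.19% had a peak in all 3. Med16 is a subunit of the tail of Mediator, Cdk8 the kinase of its detachable module, and Ell an elongation factor of the super elongation complex. Med16 had fold enrichments of 5.02, 6.52 and 4.24 in replicates 1, 2 and 3 and 4.62 in the frozen native day 2 list. Ell had 4.80, 3.93 and 4.12, and 5.48 in the frozen native day 2 list. Cdk8 had 5.17, 5.45 and 10.43, and a peak in all 4 day 2 lists, at 7.45 in the frozen native list, 3.68 in the fresh native, 3.76 in the frozen crosslinked and 3.54 in the fresh crosslinked. The share of coding genes with a peak ran from 0.0776% in the fresh crosslinked to 0.950% in the frozen native list. The place of the Cdk8 peaks relative to its start is not given here, and the IgG libraries were not analysed. Gtf2h5, of the TFIIH core, Ccnk, the cyclin of the CTD kinases CDK12 and CDK13, and Mepce, which caps the RNA that holds P-TEFb inactive, had peaks in replicates 2 and 3, from 3.71 to 4.54, and none in replicate 1 or at day 2, with 3.18 to 3.36 in the pooled list.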
